A study of Mus musculus with 12 samples.

Results

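Ribosomal protein genes encode the structural proteins of the cytosolic ribosome, and 76 of them were followed here across gels that differed in stiffness and viscoelasticity. Members were chosen by symbol alone (Rpl, Rplp or Rps followed by a number and, at most, the letter a or x, plus Rpsa). This gave 76 of 33246 listed genes, 46 of the large (60S) subunit including the 3 stalk proteins and 30 of the small (40S) subunit. All 76 were among the 14542 genes that passed the filter on low counts. Fibroblasts from the ears of 1-month-old C57BL/6 mice, used at passage 2 and fed medium with 10% serum, were seeded at 500000 cells on alginate gels that carried the adhesion peptide RGD. After 48 h, polyA RNA was sequenced from 3 biological replicates on each of 4 gels: 2-kPa elastic, 20-kPa elastic, 2-kPa viscoelastic and 20-kPa viscoelastic. Elastic gels were covalently crosslinked. Viscoelastic gels were ionically crosslinked and relaxed stress slowly, so crosslinking chemistry and viscoelasticity cannot be told apart in these 4 groups. No gene was altered, and the design asks how relaxation and stiffness of the matrix each bear on expression.

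Each ribosome holds 1 copy of most of these proteins, and cells make them in near-equal amounts. Their mRNAs are abundant, short and stable. Most start with a terminal oligopyrimidine (TOP) tract, a C followed by a run of C and T bases, through which mTORC1 and the RNA-binding protein Larp1 control their translation. Much of their regulation is known to act on translation, which mRNA counts do not measure. Transcription is promoted by Myc among other factors. Proliferating fibroblasts spend a large part of their mRNA on this gene family.

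The start sites that carry the TOP tract are shown here because it is the feature these genes share beyond their product. RefSeq promoter windows (GRCm38.p6) were given for 56 of the 76 genes. The annotated first base was a C followed by at least 4 bases that are each C or T, read on the RNA strand only, in 13 of the 56 genes (23.2%) and in 800 of 26969 other genes (2.97%). Annotated starts can lie some bases away from the base that is used most, so no tract at the annotated base says only that these letters were not there. The motif CCGGAAG, which ETS factors are known to bind, was found on either strand in 23 of 56 windows (41.1%), against 18.7% of the windows of the other tested genes. The motif AAGATGGC, read likewise on both strands, was found in 5 of 56 windows (8.93%), against 4.98%. The 6 sequences given here are 10 bases before and 20 bases from the annotated start of 5 genes that the results name and Rpl15, which had the longest tract. Capitals mark the tract.
Rplp2 (chr7:141447641-141447670, plus strand): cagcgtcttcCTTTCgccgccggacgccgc
Rpl38 (chr11:114668570-114668599, plus strand): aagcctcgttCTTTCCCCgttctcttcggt
Rps6 (chr4:86857348-86857377, minus strand): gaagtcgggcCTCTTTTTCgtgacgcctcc
Rps10 (chr17:27635225-27635254, minus strand): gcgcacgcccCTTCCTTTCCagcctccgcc
Rps15a (chr7:118116128-118116157, minus strand): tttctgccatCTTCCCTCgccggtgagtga
Rpl15 (chr14:18270967-18270996, minus strand): agaaagccttCTTCCTTTCCTCTggcggca
The search fixed the first base and a shortest tract of 5 bases, which Rplp2 has, and the tract of Rpl15 runs to 13 bases.

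Libraries held 36626221 to 43612804 counts. The smallest count of any member in any library was 134, and 73 of the 76 genes had more than 1000 counts in every library, so few values rested on small counts. Fibroblast markers (Col1a1, Col1a2, Pdgfra and 7 others) summed to 58410 to 80401 CPM (each gene's count scaled to a common library size). Group means of this sum ran opposite to the share of ribosomal protein genes at either end. They were 77669 CPM on 2-kPa elastic, 68805 on 20-kPa elastic, 69536 on 2-kPa viscoelastic and 60450 on 20-kPa viscoelastic gels. Fn1, which encodes fibronectin, made up most of each sum, at 52080, 44559, 42855 and 32124 CPM in these groups. Fn1 took 5.21%, 4.46%, 4.29% and 3.21% of the counts, and its part in the results was not tested. Other markers of the list did not all follow Fn1. On viscoelastic against elastic gels of 20 kPa, Fn1 (log2 fold change -0.51) and Thy1 (-0.53) were called lower. Col3a1 (0.26), Dcn (0.75), Lum (0.70) and Vim (0.24) were called higher (edgeR's quasi-likelihood test, adjusted p under 0.05). Summed markers of keratinocytes, endothelial cells, leukocytes, melanocytes, skeletal muscle and adipocytes each stayed at or below 7.66 CPM, and Schwann cell and smooth muscle markers reached 93.8 and 32.4 CPM. Chondrocyte markers, led by Col2a1, summed to 3927 to 5546 CPM over all libraries. At 2 kPa the ranges on elastic (4330 to 5546) and viscoelastic gels (4217 to 5336) overlapped. At 20 kPa they did not, with 3927 to 4067 CPM on elastic and 4158 to 5526 CPM on viscoelastic gels. Of this list, viscoelastic gels had Acan called lower at 2 kPa (log2 fold change -0.47) and Col9a1 called higher at 20 kPa (0.87). The labels name fibroblasts, and cartilage lies in the ear that the cells came from. The part of these cells in any result was not tested. In bulk RNA, fewer cells of a type and less RNA per cell cannot be told apart.

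Ribosomal protein genes took a larger share of the counts on viscoelastic than on elastic gels at both stiffnesses. On 2-kPa elastic gels the share was 1.36%, 1.35% and 1.36% in replicates 1, 2 and 3. On 20-kPa elastic gels it was 1.52%, 1.52% and 1.46%. On 2-kPa viscoelastic gels it was 1.76%, 1.56% and 1.86%, and on 20-kPa viscoelastic gels 2.03%, 1.89% and 2.07%. No group overlapped another, and the order of the group means ran from 2-kPa elastic (1.36% ± 0.00844, SD, n = 3) through 20-kPa elastic (1.5001% ± 0.0377) and 2-kPa viscoelastic (1.73% ± 0.152) to 20-kPa viscoelastic (2.00% ± 0.0939). The neighbours 20-kPa elastic and 2-kPa viscoelastic lay closest, the highest library of the first at 1.52% and the lowest of the second at 1.56%.

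**Figure D1:**
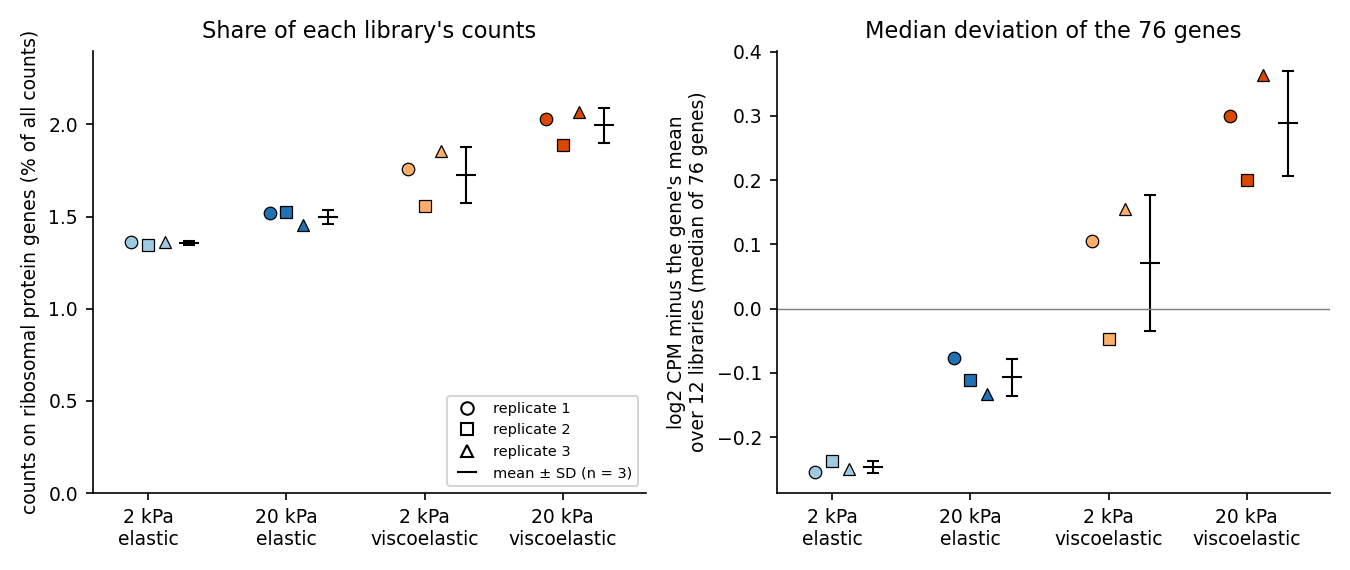
Share of each library's counts on the 76 ribosomal protein genes (left, %) and the median over the 76 genes of log2 CPM minus each gene's own mean over 12 libraries (right), by gel. Symbols are the 3 replicates and bars the mean ± SD. Replicate 2 lies below the others on both viscoelastic gels, and the 4 groups do not overlap in either panel. Neither panel is corrected for transcript length.

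The same order held gene by gene. In 72 of the 76 genes the group means of log2 CPM ranked from 2-kPa elastic through 20-kPa elastic and 2-kPa viscoelastic to 20-kPa viscoelastic. Rpl8, Rps2 and Rps10 had the 2 middle groups the other way round, and Rpl24 was highest on 2-kPa viscoelastic gels. The share of all tested genes in this order was not computed, and the members share the same 12 libraries. Other tested genes with transcripts under 1000 bases had group means of the median deviation in the same order, -0.094, -0.079, 0.031 and 0.156. Their 2 elastic groups overlapped. Replicate 2 of the 2-kPa viscoelastic group was the lowest of its group in 73 of 76 genes, and replicate 2 of the 20-kPa viscoelastic group in 68 of 76. These 2 libraries also had the highest shares of mitochondrially encoded counts of all 12, 2.97% and 3.34%, against 1.77% to 2.68% in the others. The part of this difference in the results was not tested.

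**Figure D2:**
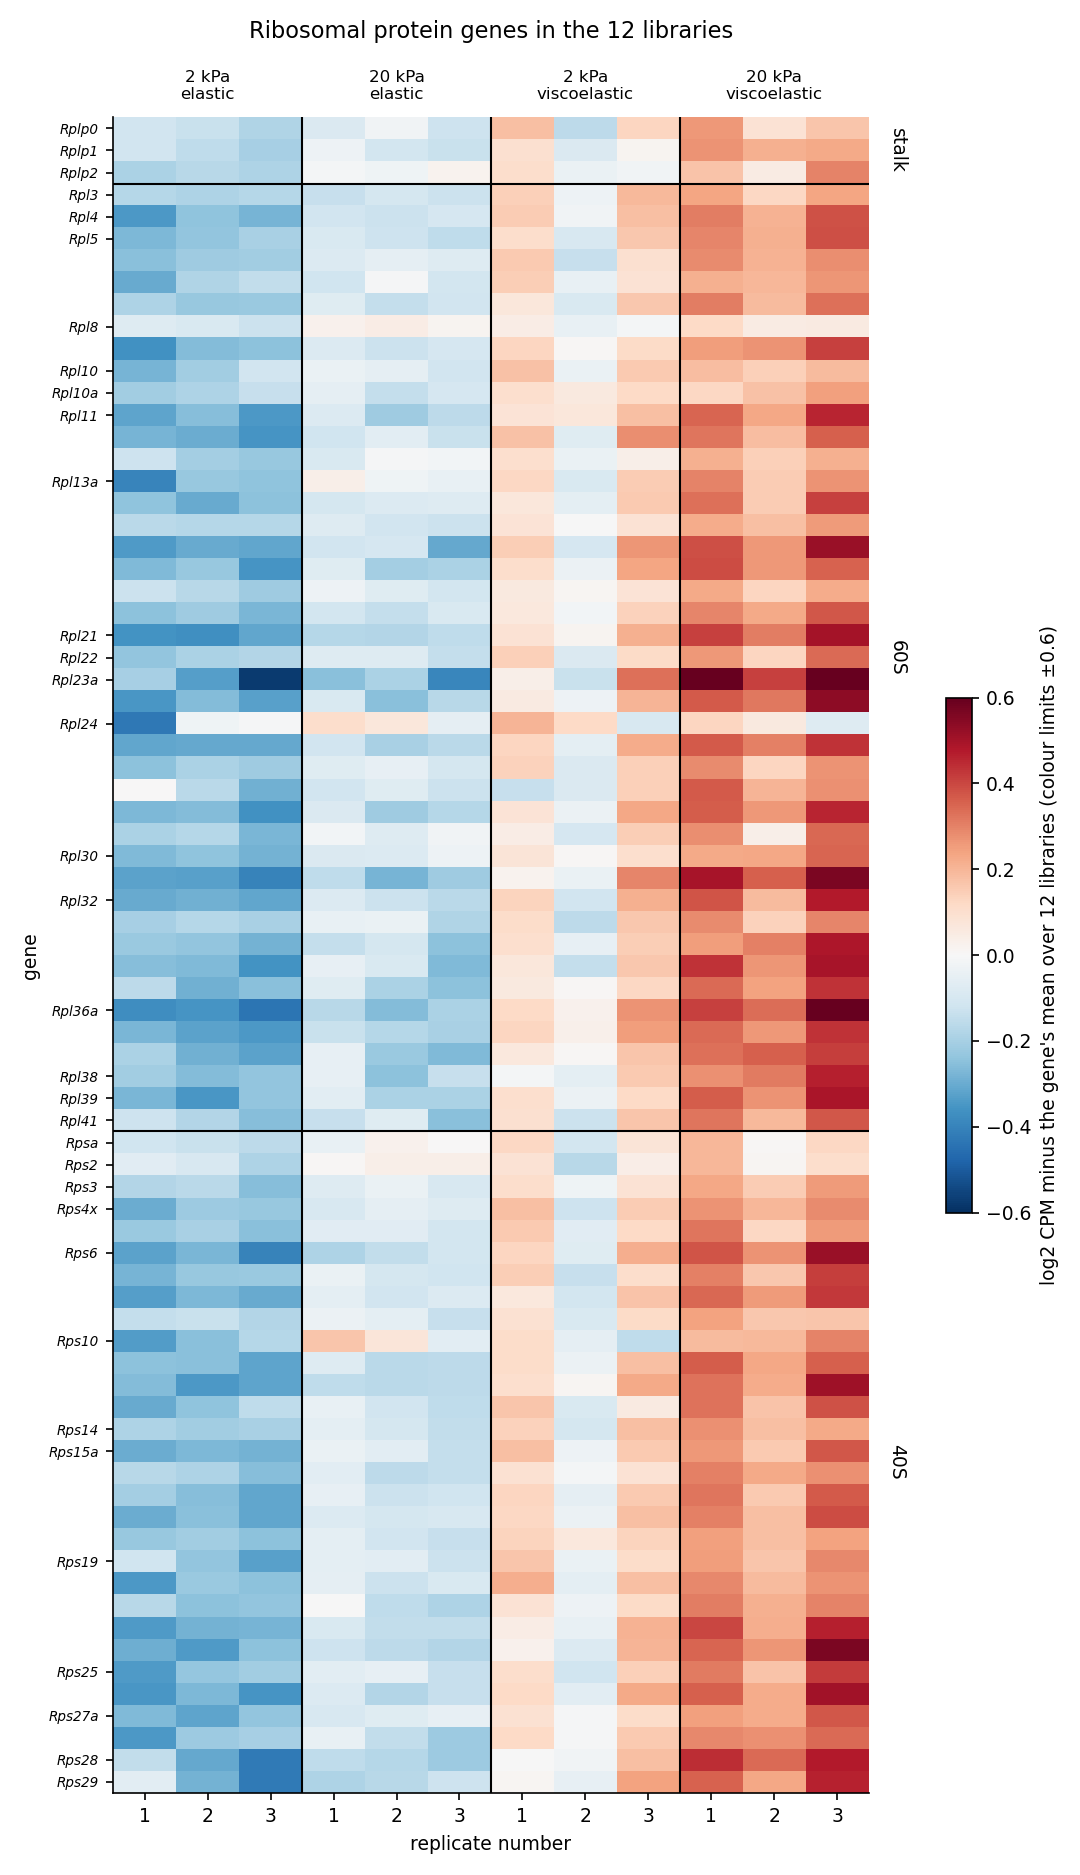
Log2 CPM of each of the 76 genes minus its mean over the 12 libraries, with stalk, 60S and 40S genes as rows, names on those chosen for description, and the 3 replicates of each gel as columns. Colours run from blue (lower) to red (higher). Columns shift together from 2-kPa elastic to 20-kPa viscoelastic gels in nearly every row, while Rpl8, Rpl24, Rps2 and Rps10 are paler or out of order.

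Levels per kilobase differed widely between members. CPM per kilobase of the principal transcript (RPKM) had a median of 199 and ran from 4.71 in Rps10 to 743 in Rpl4. Rpl4, which helps to line the tunnel through which new protein leaves the ribosome, was followed by Rpl32 (601) and the stalk protein gene Rplp1 (568). The lowest were Rps10 (4.71), Rpl24 (11.3) and Rps15a (36.4). Rps10 shares exons on its own strand with a read-through gene, RPS10-NUDT3, and Rpl24 with Gm28037, and how counts in such shared exons were assigned is not given in the sources used here. The principal transcript of Rps15a is 5179 bases, the longest among the members, which lowers its level per kilobase. In all, 27 members have annotated exons, over all their transcripts, that overlap those of another gene on the same strand, and 49 have pseudogene entries. The 236 pseudogene entries took 0.0144% to 0.0202% of the counts.

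At 2 kPa, 67 of the 76 genes rose on viscoelastic against elastic gels and none fell (edgeR's quasi-likelihood test, adjusted p under 0.05, 8.77% of all tested genes called higher). All 76 fold changes were positive, from 0.10 in Rpl8 to 0.53 in Rpl36a on the log2 scale. The median was 0.32, beside -7.5e-05 over all tested genes. Large and small subunit genes had medians of 0.30 over 46 and 0.33 over 30 genes and 40 and 27 called. The lowest viscoelastic library lay above the highest elastic one in 71 genes (16.6% of all tested genes).

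The 9 genes not called at 2 kPa were Rplp0, Rplp1, Rpl8, Rpl24, Rpl27, Rpl41, Rps2, Rps10 and Rpsa. Rpl41, which encodes the smallest ribosomal protein, stood just outside the threshold at 0.23 ± 0.08 (SE, adjusted p = 0.0501). Leaving out replicate 2 of the 2-kPa viscoelastic group gave 71 calls, and leaving out replicate 3 gave 53.

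At 20 kPa, 71 of the 76 genes rose and none fell (17.4% of all tested genes called higher). Here 75 fold changes were positive, with a median of 0.39 (1.31-fold) beside 0.016 over all tested genes. The median was 0.40 for large and 0.39 for small subunit genes, with 44 and 27 called. The groups did not overlap in 73 genes, all with viscoelastic higher (26.2% of all tested genes). The 67 genes called at 2 kPa were all among the 71 called at 20 kPa. With 71 of 76 called there, most had to be shared in any case. The 2 comparisons share no library, but they come from 1 fit with 1 estimate of spread. Not called were Rpl8, Rpl24, Rps2, Rps10 and Rpsa.

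Taking both stiffnesses at once, the mean viscoelastic effect was called in 72 genes, all higher (19.6% of all tested genes), with a median of 0.35. Rpl8, Rpl24, Rps2 and Rps10 were the 4 left out. Whether the effect of viscoelasticity differed between 2 and 20 kPa was tested by the interaction. No member passed it (edgeR's quasi-likelihood test), with 5 at an unadjusted p under 0.05, while 4.45% of all tested genes were called higher in it. DESeq2 called none either. Its median over the members was 0.08, beside 0.02 over all tested genes and 0.10 over the other genes shorter than 1000 bases.

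Among the genes of the large subunit, Rpl21 gave the clearest separation, with the lowest p of any member in both viscoelastic comparisons. Rpl21 (ENSMUSG00000041453.12, chr5:146832890-146837032, plus strand) stood at 149, 148 and 154 CPM on 2-kPa elastic gels and at 203, 193 and 221 on 2-kPa viscoelastic gels. On 20-kPa gels it stood at 169, 169 and 172 CPM (elastic) and 254, 236 and 270 (viscoelastic). Rpl21 has 14 pseudogene entries and overlaps 2 other genes on its strand, so its counts are also less certain. All viscoelastic libraries were above all elastic ones, and the log2 fold change was 0.45 ± 0.06 (SE, n = 3 per group, adjusted p = 0.000323) at 2 kPa and 0.57 ± 0.06 (adjusted p = 8.67e-05) at 20 kPa.

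Rpl36a (ENSMUSG00000079435.9, chrX:134585654-134588062, plus strand) had the largest fold change at 2 kPa. Its levels were 79.4, 80.5 and 75.9 CPM on 2-kPa elastic against 112, 105 and 124 CPM on 2-kPa viscoelastic gels, a log2 fold change of 0.53 ± 0.08 (adjusted p = 0.000369). At 20 kPa they were 91.6, 85.9 and 90.0 CPM against 137, 129 and 157 CPM, a log2 fold change of 0.66 ± 0.08 (adjusted p = 8.89e-05). Neither pair of groups overlapped.

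Rpl23a, whose protein sits at the tunnel exit where the signal recognition particle docks, had the largest fold change at 20 kPa. Rpl23a (ENSMUSG00000058546.8, chr11:78180932-78183584, minus strand) stood at 40.4, 42.1 and 36.6 CPM on elastic and 75.8, 63.8 and 74.7 CPM on viscoelastic gels of 20 kPa. The log2 fold change was 0.85 ± 0.11 (adjusted p = 0.000161), or 1.80-fold. At 2 kPa it was 0.45 ± 0.11 (adjusted p = 0.0126), and Rpl23a also had the largest interaction value of the members, 0.40, which was not called. The gene has 12 pseudogene entries and overlaps a small nucleolar RNA gene on its strand, so its counts are less certain.

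Rpl4 and the genes of the 5S particle also rose. Rpl4 (ENSMUSG00000032399.8, chr9:64173375-64178666, plus strand), the highest member, went from 888, 954 and 931 CPM on 2-kPa elastic to 1253, 1111 and 1280 CPM on 2-kPa viscoelastic gels. At 20 kPa it went from 1042, 1031 and 1050 to 1394, 1302 and 1471 CPM. The log2 fold changes were 0.39 ± 0.07 (adjusted p = 0.00194) and 0.42 ± 0.07 (adjusted p = 0.000717). Rpl5 and Rpl11, which join 5S rRNA in a particle that can bind Mdm2 when ribosome assembly stalls, had log2 fold changes of 0.29 and 0.41 at 2 kPa and of 0.42 and 0.50 at 20 kPa. All 4 passed the test, with adjusted p of 0.00808, 0.000632, 0.000437 and 0.000137.

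The stalk genes had small fold changes. Rplp0, Rplp1 and Rplp2 form the flexible stalk that recruits elongation factors. Their log2 fold changes at 2 kPa were 0.20, 0.17 and 0.20, of which the test called Rplp2 alone (adjusted p = 0.0428, against 0.0945 and 0.0643). At 20 kPa they were 0.25, 0.33 and 0.18, all called (adjusted p = 0.0285, 0.00101 and 0.0408).

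Other large subunit genes named for their roles lay between these. Rpl39, whose protein lies near the tunnel exit, rose by a log2 fold change of 0.35 at 2 kPa and 0.52 at 20 kPa. Rpl38, known for its part in translation of Hox mRNAs in mouse embryos, rose by 0.27 and 0.50. Rpl3, Rpl10, Rpl10a and Rpl22 were called in both comparisons, with log2 fold changes from 0.26 to 0.30 at 2 kPa and from 0.24 to 0.34 at 20 kPa.

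In the small subunit, Rps6 had the largest fold change at 2 kPa. Its protein is the S6 kinase substrate that gives the usual readout of mTORC1 activity. The levels of Rps6 were 115, 118 and 108 CPM on 2-kPa elastic and 156, 136 and 166 CPM on 2-kPa viscoelastic gels. At 20 kPa they were 126, 129 and 132 CPM and 185, 172 and 205 CPM. The groups did not overlap at either stiffness, and the log2 fold changes were 0.43 ± 0.08 (adjusted p = 0.00175) and 0.54 ± 0.08 (adjusted p = 0.000208).

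Rps28, a small protein at the mRNA exit, had the largest fold change of the small subunit at 20 kPa, 0.60 ± 0.07 (adjusted p = 0.000117). It stood at 45.0, 44.4 and 43.0 CPM on elastic and 68.0, 63.3 and 69.6 CPM on viscoelastic gels. Rps29 rose by 0.32 at 2 kPa and 0.51 at 20 kPa. Rps4x, Rps14, Rps19, Rps25, Rps27a (which encodes a fusion with ubiquitin) and Rps3 were called in both comparisons, with log2 fold changes from 0.25 to 0.34 and from 0.28 to 0.39.

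A few abundant members did not pass the test at either stiffness. Rps2, at the mRNA entry side of the small subunit, stood at 334, 328 and 309 CPM on 2-kPa elastic and 372, 312 and 361 CPM on 2-kPa viscoelastic gels. At 20 kPa it stood at 353, 359 and 359 CPM and 403, 354 and 377 CPM. The groups overlapped at both stiffnesses, with log2 fold changes of 0.11 ± 0.07 (adjusted p = 0.318) and 0.08 ± 0.07 (adjusted p = 0.398). Rps2 has 11 pseudogene entries and overlaps Snora64 on its strand, so its counts are less certain too.

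Rpl8 encodes a protein near the peptidyl transferase centre of the large subunit. Its log2 fold change was 0.10 ± 0.05 (adjusted p = 0.222) at 2 kPa and 0.04 ± 0.05 (adjusted p = 0.566) at 20 kPa. At 20 kPa the levels were 437.9, 444.5 and 436.3 CPM against 467.8, 445.0 and 446.8 CPM, so the groups were apart by less than 1 CPM. Rpsa, also known as a laminin receptor, gave 0.17 ± 0.07 (adjusted p = 0.0977) and 0.12 ± 0.07 (adjusted p = 0.21). Rpsa has 12 pseudogene entries and overlaps Gm24044 on its strand, while Rpl8 has no such entry or overlap. Rpl24 and Rps10 had few counts, 8.74 CPM or less in every library, and SE of 0.11 to 0.12.

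**Figure D3:**
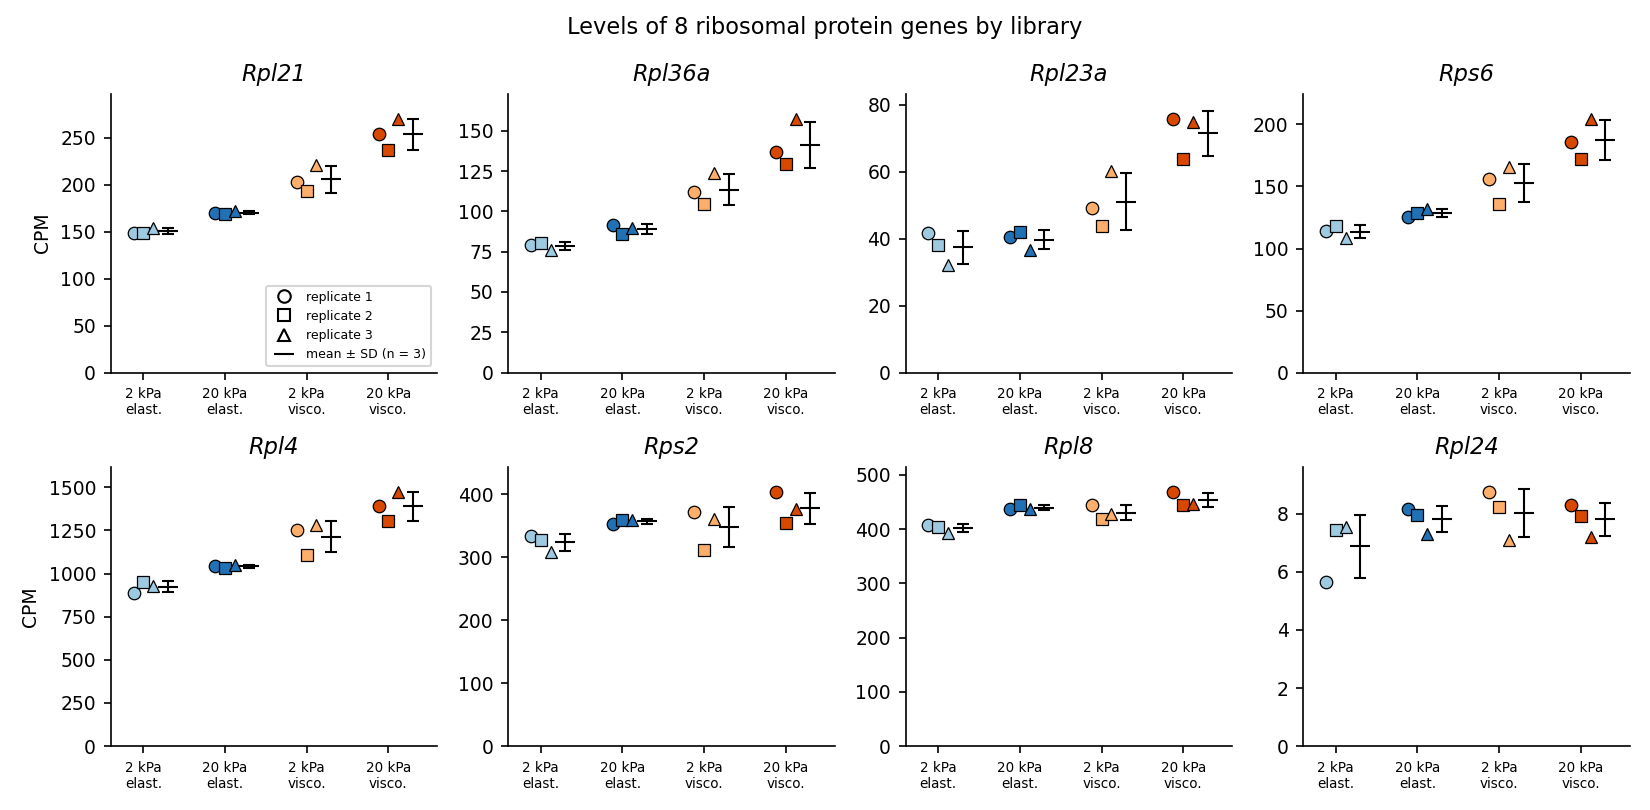
CPM of 8 ribosomal protein genes in each of the 12 libraries by gel, with symbols for the 3 replicates and bars for the mean ± SD; every axis starts at 0. In Rpl21, Rpl36a, Rpl23a, Rps6 and Rpl4 the viscoelastic libraries lie above the elastic ones of the same stiffness, while in Rps2 and Rpl24 the groups overlap and in Rpl8 they nearly touch.

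These transcripts are short, and short transcripts in general were higher on viscoelastic gels. The principal transcripts of the members had a median of 843 bases, and 50 of the 76 were under 1000 bases, against a median of 2953 bases in the other tested genes. In the other genes of under 1000 bases, 1035 in number, the median log2 fold change was 0.12 at 2 kPa and 0.23 at 20 kPa, and 14.3% and 35.7% of them were called higher. In the 93 of these with a mean of at least 50 CPM, a level like that of the members, the medians were 0.19 and 0.29, with 38 and 64 called higher. From 5000 bases up, the median of other genes was -0.13 and -0.14. Library composition by length thus moved with the groups, and its cause was not tested.

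Within each length class the members lay above the other genes. At 2 kPa the median of the 20 members of 500 to 750 bases was 0.33, against 0.12 in 325 other genes of that length and 0.21 in the 38 of these with at least 50 CPM. At 750 to 1000 bases it was 0.31 in 21 members, against 0.12 and 0.18. The 15 members of 1000 to 1500 bases had a median of 0.32, against 0.08 in both. At 20 kPa and 500 to 750 bases the members' median was 0.43, against 0.25 in the other genes and 0.27 in those of at least 50 CPM. At 750 to 1000 bases it was 0.36, against 0.22 and 0.30. Across the 76 members, log2 fold change and log2 length had a Pearson's r of -0.03 at 2 kPa and -0.26 at 20 kPa, given as a description, since the points share the same 12 libraries.

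**Figure D4:**
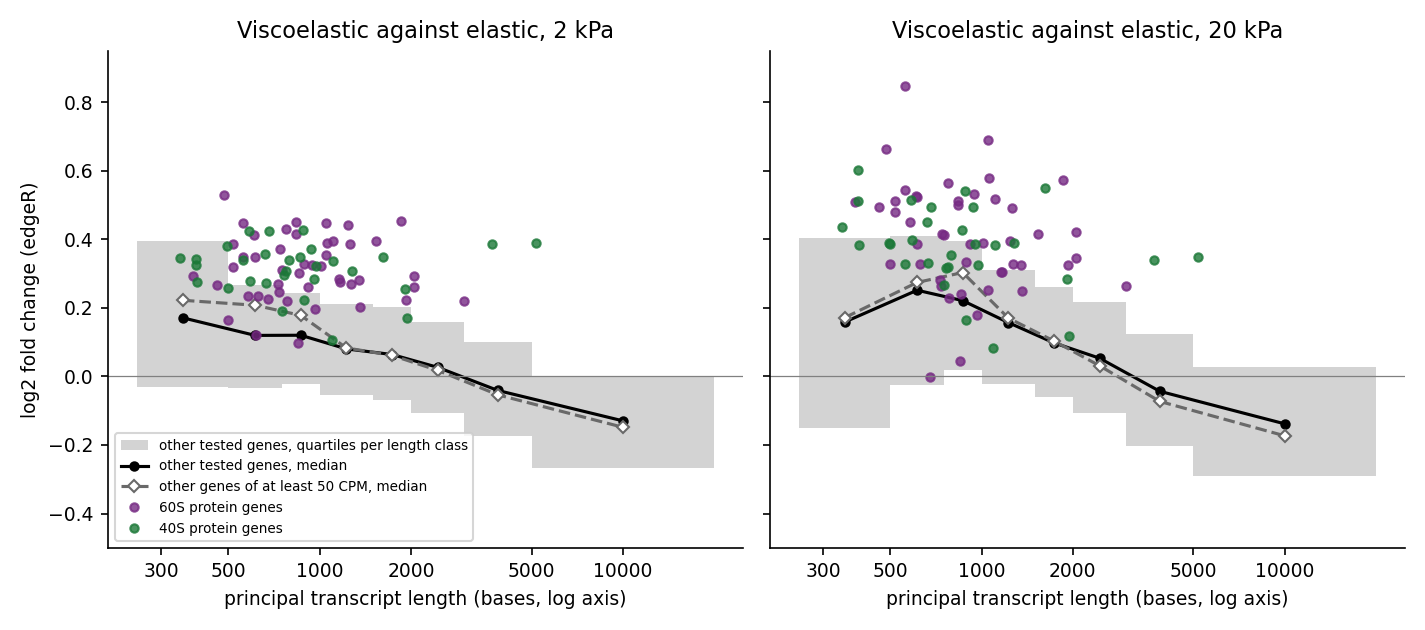
Log2 fold change of viscoelastic against elastic gels by length of the principal transcript (bases, log axis) at 2 kPa (left) and 20 kPa (right). Coloured points are the 60S and 40S protein genes, the black line and grey band the median and quartiles of the other tested genes by length class, and the dashed line the median of those with at least 50 CPM. At 2 kPa the black line falls from 0.17 below 500 bases to -0.13 from 5000 bases up. At 20 kPa it rises from 0.16 to 0.25 over the 2 shortest classes and then falls to -0.14, and the dashed line peaks at 0.30 at 750 to 1000 bases.

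The tests were repeated with each library's smooth trend on length removed, the trend having been fitted without cytosolic and mitochondrial ribosomal protein genes. At 2 kPa, 34 of the 76 genes rose and none fell (8.17% of all tested genes called higher), with a median log2 fold change of 0.21 and 74 positive. At 20 kPa, 50 rose and none fell (13.1%), with a median of 0.25 and 73 positive. All viscoelastic libraries lay above all elastic ones in 37 members at 2 kPa and 66 at 20 kPa, against 71 and 73 without the correction. The share of all tested genes without overlap was not computed with the correction. Of the mean viscoelastic effect, 63 genes were called, all higher (16.4%), with a median of 0.23. No member passed the interaction, with 1 at an unadjusted p under 0.05 (4.04% of all tested genes called higher). The median over all tested genes was 0.0079 at 2 kPa and 0.0033 at 20 kPa. With the correction the 4 groups no longer stood fully apart in the members' median deviation per library. Replicate 2 of the 2-kPa viscoelastic group (-0.11) lay below the 20-kPa elastic libraries (-0.062 to -0.054). Replicate 2 of the 20-kPa viscoelastic group (0.10) lay below replicate 3 of the 2-kPa viscoelastic group (0.12). Viscoelastic and elastic libraries of the same stiffness still did not overlap.

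A trend drawn only from other genes of at least 50 CPM took away more. It left 31 genes called higher at 2 kPa (8.53% of all tested genes) with a median of 0.17. At 20 kPa it left 31 called higher (14.4%) and 1, Rpl8, called lower (log2 fold change -0.21, adjusted p = 0.0114), with a median of 0.16. So the number of members called at 20 kPa ran from 71 without a length correction to 32 with this one.

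Named genes are given here with the length correction. Rpl21 kept log2 fold changes of 0.40 ± 0.07 (adjusted p = 0.00168) and 0.48 ± 0.07 (adjusted p = 0.000312), and Rpl36a of 0.39 (adjusted p = 0.004) and 0.51 (adjusted p = 0.000453). Rps6 (0.31, adjusted p = 0.0189, and 0.38, adjusted p = 0.00378), Rpl4 (0.32, adjusted p = 0.0141, and 0.29, adjusted p = 0.0134), Rpl5 and Rpl11 also were called at both stiffnesses. Rpl30, Rpl39, Rps15a and Rps27a kept both calls too. Other named genes called at both stiffnesses without the correction lost calls. Rpl3, Rpl10, Rpl10a, Rps3, Rps4x, Rps14 and Rps19 were called at neither stiffness with it. Rpl22, Rpl23a, Rpl32, Rpl38, Rps25, Rps28 and Rps29 were called at 20 kPa and no longer at 2 kPa. Rpl13a was called at 2 kPa and no longer at 20 kPa. The 3 stalk genes had length-corrected values of 0.03 to 0.12 at 2 kPa and 0.02 to 0.18 at 20 kPa and were not called. Rps15a, with its long annotated transcript, moved the other way, from 0.39 to 0.49 at 2 kPa. Across the 76 members, corrected log2 fold change and log2 length had a Pearson's r of 0.36 at 2 kPa and -0.045 at 20 kPa. So at 2 kPa corrected values tended to be higher in members with longer annotated transcripts. A corrected value depends on the transcript taken for the gene's length.

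**Figure D5:**
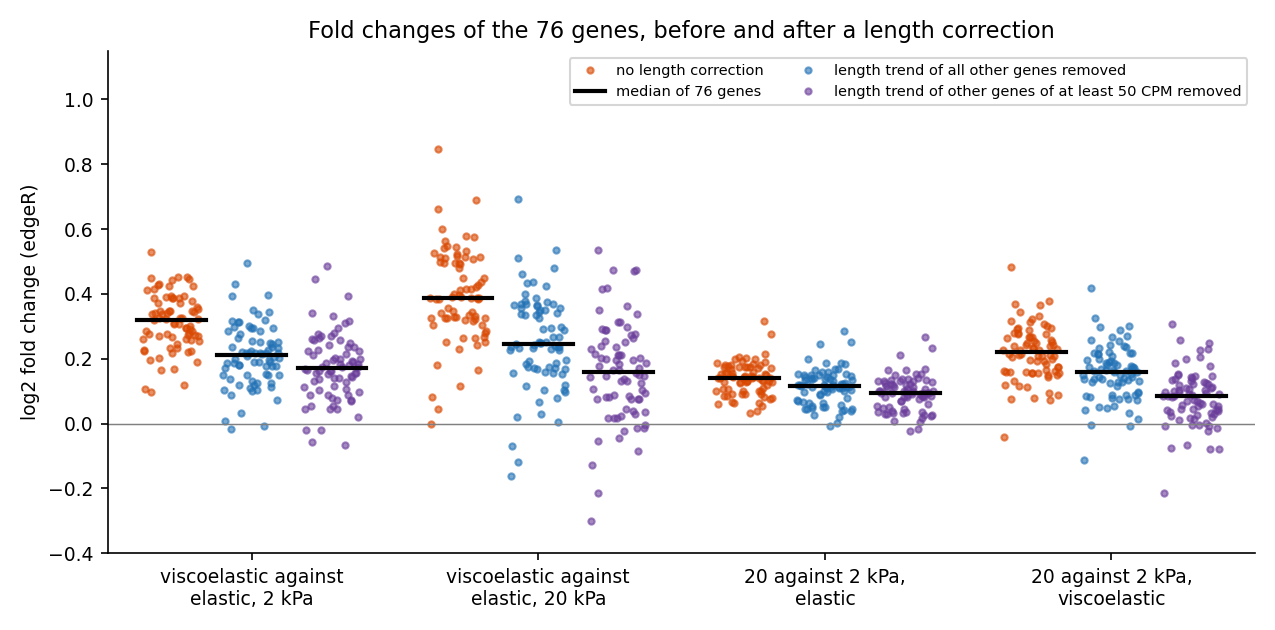
Log2 fold changes of the 76 genes in 4 comparisons, without a length correction (orange), with the length trend of all other tested genes removed (blue) and with that of other genes of at least 50 CPM removed (purple); black lines are medians. Medians fall from 0.32 to 0.21 and 0.17 at 2 kPa and from 0.39 to 0.25 and 0.16 at 20 kPa.

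On both kinds of gel the members stood higher at 20 than at 2 kPa, with few calls. These comparisons share groups with those above, 2-kPa elastic and 20-kPa elastic gels here, so their values are set side by side only. On elastic gels all 76 fold changes of 20 against 2 kPa were positive, with a median of 0.14 beside -0.0083 over all tested genes and 0.01 over the other genes under 1000 bases. Only 3 genes were called, all higher (6.81% of all tested genes called higher). The groups did not overlap in 56 genes (17.8% of all tested genes), and in 53 with the length correction.

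The 3 genes were Rpl13a, Rpl30 and Rps27a. Rpl13a, known also for its part in translational silencing by the GAIT complex, went from 38.9, 43.8 and 43.4 CPM to 52.6, 50.4 and 49.7 CPM (0.28 ± 0.07, adjusted p = 0.0183). Rpl30 went from 97.7, 99.3 and 96.4 to 111, 111 and 115 CPM (0.20 ± 0.05, adjusted p = 0.0228). Rps27a went from 132, 128 and 135 to 149, 151 and 154 CPM (0.20 ± 0.06, adjusted p = 0.0328). With the length correction the calls were Rpl13a (0.25, adjusted p = 0.0385) and Rps15a (0.24, adjusted p = 0.0206), with 75 values positive, a median of 0.11 and 8.26% of all tested genes called higher. Across the members, corrected log2 fold change and log2 length had a Pearson's r of 0.50 here, against 0.21 without the correction. The count of calls without the correction moved with single libraries. It was 0 without replicate 1 of the 2-kPa elastic group, 1 without replicate 2 or 3 of either elastic group and 12 without replicate 2 of the 2-kPa viscoelastic group.

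On viscoelastic gels, 15 genes rose from 2 to 20 kPa and none fell (1.58% of all tested genes called higher), and 75 fold changes were positive. The median was 0.22 (1.17-fold), beside 0.0079 over all tested genes and 0.12 over the other genes under 1000 bases. Among them were Rpl21, Rpl23a, Rpl36a, Rpl38, Rpl39 and Rps28. Rps28 had the lowest p, going from 49.8, 49.2 and 56.7 CPM to 68.0, 63.3 and 69.6 CPM (0.37 ± 0.07, adjusted p = 0.0239). The largest change was that of Rpl23a, from 49.1, 43.8 and 60.3 CPM to 75.8, 63.8 and 74.7 CPM (0.48 ± 0.11, adjusted p = 0.0383). The groups did not overlap in 52 genes (13.6% of all tested genes), and in 22 with the length correction.

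With the length correction no member was called for stiffness on viscoelastic gels (edgeR's quasi-likelihood test, 0.619% of all tested genes called higher), although 43 had an unadjusted p under 0.05 and the median was 0.16. The 15 calls were also lost without either of replicates 1 and 2 of the 2-kPa viscoelastic group or replicates 1 and 3 of the 20-kPa viscoelastic group. They numbered 4 and 7 without replicates 2 and 3 of the 2-kPa elastic group and 9 and 5 without replicates 1 and 2 of the 20-kPa elastic group, libraries that are not among those compared but share the estimate of spread.

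Fold changes are given next by the TOP tract at the annotated start. At 2 kPa the median log2 fold change of viscoelastic against elastic gels was 0.32 in the 13 with the tract, 0.31 in the 43 without it and 0.33 in the 20 without a window. At 20 kPa these were 0.39, 0.39 and 0.37. GC content of the transcript is a second feature the rule did not use. Across the 76, log2 fold change and GC content had a Pearson's r of -0.43 at 2 kPa and -0.28 at 20 kPa, a description over genes that share the same libraries. With the GC trend of other genes removed along with that on length, 33 members were called at 2 kPa and the median was 0.20. At 20 kPa 51 were called and the median was 0.23. The share of all tested genes called under this setting is not given here, so these counts have no background beside them.

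Other genes of the translation machinery are given for comparison, with no test against the members. Ribosomal proteins whose symbols fall outside the rule had 10 of 12 genes tested. Of these 5 rose and none fell at each stiffness, beside 8.77% and 17.4% of all tested genes called higher, with medians of 0.20 and 0.15. With the length correction Fau alone was called at 2 kPa (adjusted p = 0.0322), and Fau (adjusted p = 0.024) and Rps3a1 (adjusted p = 0.0497) at 20 kPa. Of all tested genes 8.17% and 13.1% were called higher with it. Fau, which encodes a fusion with ribosomal protein S30, rose by log2 fold changes of 0.32 and 0.36, and Rps3a1 by 0.33 and 0.39, while Rack1, a scaffold on the small subunit, gave 0.18 (adjusted p = 0.0854) and 0.14 (adjusted p = 0.152).

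Of 16 translation factors and other genes known to carry a TOP tract, 5 rose at 2 kPa and 8 at 20 kPa, and none fell. The medians were 0.16 and 0.22, and 8.77% and 17.4% of all tested genes were called higher. At both stiffnesses Eef1b2, an exchange factor for elongation factor 1, rose by 0.29 and 0.28, and the initiation factor 3 subunit genes Eif3e, Eif3f, Eif3h and Eif3k were called as well. Tpt1 was called at 20 kPa (0.47, adjusted p = 0.000876) and not at 2 kPa (0.23, adjusted p = 0.0616), and the difference between them, the interaction, was not called (adjusted p = 0.264). Eef1a1 and Eef2, the most abundant of this list, had values of 0.18 and 0.12 at 2 kPa and of 0.25 and 0.08 at 20 kPa, none called. With the length correction 1 gene of the list was called at 2 kPa and 2 at 20 kPa. Of all tested genes 8.17% and 13.1% were then called higher, so these corrected counts lie near the background.

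Most genes for ribosome assembly did not pass the test. Of 49 tested, 2 rose and 4 fell at 2 kPa, and 3 rose and 13 fell at 20 kPa, with medians of -0.05 and -0.04. Over all tested genes 11.1% were called lower at 2 kPa and 16.1% at 20 kPa, so the 4 at 2 kPa are no more than the background. Those that fell at both stiffnesses were Rrp12, Heatr1, Xpo1 and Mdn1. Rrp12, a factor for export of subunits, fell by 0.50 and 0.51 on the log2 scale, and Heatr1, a part of the small subunit processome, fell by 0.38 and 0.56. Sbds, which helps to release a factor from the new large subunit, rose by 0.33 and 0.39. With the length correction Rrp12 alone was called lower at both. Heatr1 (adjusted p = 0.09) and Xpo1 (adjusted p = 0.0937) were not called at 2 kPa, nor Mdn1 at 20 kPa (-0.12, adjusted p = 0.364). The lower calls at 20 kPa numbered 13 with the correction too, Mdn1 having dropped out and Nop2 having come in. On elastic gels 14 assembly genes rose from 2 to 20 kPa and none fell, with a median of 0.17 (6.81% of all tested genes called higher). Among them were Nop56 (0.34), Nop58 (0.34) and the pseudouridine synthase gene Dkc1 (0.32).

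Regulators of growth and TOP translation had calls in both directions. Of 22 tested, 2 rose and 3 fell at 2 kPa, and 3 rose and 6 fell at 20 kPa. Of all tested genes 19.9% and 33.5% were called in either direction, against 22.7% and 40.9% of this list, so the counts lie near the background. Mtor fell by 0.25 and 0.28 on the log2 scale and Rptor by 0.34 and 0.30, both called at each stiffness. With the length correction Mtor was at -0.09 (adjusted p = 0.319) and -0.13 (adjusted p = 0.0962), while Rptor stayed called at -0.20 (adjusted p = 0.0297) and -0.17 (adjusted p = 0.0358). Myc rose at 2 kPa (0.28, adjusted p = 0.0131, lost with the length correction at 0.20, adjusted p = 0.0705) and was at 0.023 (adjusted p = 0.828) at 20 kPa, and the difference between them was not called (interaction -0.26, adjusted p = 0.14).

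The mitochondrial ribosome, which is built from a separate set of nuclear genes, gave 7 higher calls of 77 tested at 2 kPa and 38 at 20 kPa, with 1 lower call at 20 kPa. The higher calls made up 9.09% and 49.4% of the list, beside 8.77% and 17.4% of all tested genes, so the count at 2 kPa is at the background. Its medians were 0.08 and 0.18, and 0.03 and 0.11 with the length correction. The cytosolic set had 0.21 and 0.25 under the same correction.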

How the data were processed

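The 12 libraries came as 1 table of gene counts. Per the labels and the study's methods, the authors trimmed reads (Trimmomatic), aligned them to mm10 (STAR) and counted reads per gene (featureCounts, GENCODE annotation), and the counts were deposited without normalization. The annotation release, strand setting and treatment of multimapping reads are not given in the sources used here.

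Counts were scaled by TMM and fitted with edgeR 4.0.16 (R 4.3.3) by its quasi-likelihood test, with 1 coefficient for each of the 4 groups and all 12 libraries sharing 1 estimate of spread (8 residual degrees of freedom). Genes were kept by filterByExpr (minimum count 10, minimum total 15), and Benjamini-Hochberg adjusted p-values cover all 14542 genes kept, with a threshold of 0.05. The interaction is the viscoelastic effect at 20 kPa minus that at 2 kPa. CPM of the members use TMM library sizes, and CPM of the cell type markers use total counts. The common biological coefficient of variation was 7.50%. The p-values measure the spread between these replicates.

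Length corrections entered as offsets, each library's trend of log2 CPM (prior count 2), minus the gene's mean, on log length of the principal transcript (natural spline, 6 degrees of freedom), fitted without cytosolic or mitochondrial ribosomal protein genes. Lengths and coordinates came from GENCODE on GRCm38, and 13967 tested genes (96.0%) had a length. Alternatives were DESeq2 1.42.0, other scalings, no filter, GC and length corrections, a replicate block and each library left out in turn. Correction with union-of-exons lengths, with the trend of genes of at least 50 CPM, and with block, length and GC at once was added after seeing the data. Scripts were tested on simulated data.

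Samples were grouped by the labels' stiffness and gel type. Named genes were a list of members with known roles, the members with the lowest p and the largest fold changes in each comparison, the 3 highest and 3 lowest per length, and all members called where 5 or fewer were. Rpl15 and the other genes of printed or listed calls outside this rule were chosen after their values were seen. Members and lists were chosen with earlier results of these data known. Protein sequences were not used here. The values of 1 member are not reported here by name.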

Additional observations from a re-analysis of the deposited data

How the results depend on the processing

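Of the recomputed summary values, 255 kept their direction and size, 62 moved and 1 changed sign, and of the values of the 34 named genes in both viscoelastic comparisons and of those called for stiffness 1672 kept direction and side of the threshold, 288 fell below the threshold, 15 passed it and 27 changed sign. Where no share of all tested genes called was given above for a setting, its counts here have no background beside them. The largest movements came with correction for transcript length. At 2 kPa, calls of viscoelastic against elastic gels fell from 67 to 34 with the length correction, 33 with length and GC, 31 with the replicate block and length, 32 with block, length and GC, and 31 with the trend of genes of at least 50 CPM, and the median from 0.32 to 0.21, 0.20, 0.21, 0.20 and 0.17 (0.24 with union-of-exons lengths). At 20 kPa the medians under the same settings were 0.25, 0.23, 0.24, 0.23 and 0.16 (0.28 with union-of-exons lengths), and calls moved past 1.5 times the reported count only with the last trend (32). For the mean of both stiffnesses they were 0.23, 0.22, 0.23, 0.22 and 0.16 (0.26).

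For stiffness on elastic gels, calls were 12 by DESeq2, 6 with RLE size factors, 1 without the filter, 10 with the GC correction, 1 with replicate block and length, 22 from the 6 samples alone and 0 at an adjusted p under 0.01. On viscoelastic gels they were 39 by DESeq2, 6 with the replicate block, 0 with length, with length and GC, with block and length, with the trend of genes of at least 50 CPM, from the 6 samples alone and at an adjusted p under 0.01, 1 with union-of-exons lengths and 2 with block, length and GC, and the median fell to 0.086 with the trend of genes of at least 50 CPM. The interaction had 1 call without the filter, and its median turned to -0.019 with that trend. Shares of counts without mitochondrial and 18S counts were 1.41%, 1.57% and 2.10% for 2-kPa elastic, 20-kPa elastic and 20-kPa viscoelastic gels.

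Leaving out each library gave 53 to 71 calls at 2 kPa (medians 0.27 to 0.37), 67 to 71 at 20 kPa (0.36 to 0.44) and 71 to 73 for the mean effect (0.33 to 0.38). It gave 0 to 12 calls for stiffness on elastic gels (0.13 to 0.15), 0 to 18 on viscoelastic gels (0.17 to 0.26) and 0 to 2 for the interaction (0.013 to 0.13). The 2 came without replicate 3 and the 0.013 without replicate 2 of the 2-kPa viscoelastic group.

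Not given gene by gene are the named genes' remaining values: in the interaction 111 of 850 values changed sign, in 16 genes, and in the mean effect 20 of 850, in 5 genes. Over all 34 genes, 6 of 884 values changed sign for stiffness on elastic gels and 15 on viscoelastic gels. In the viscoelastic comparisons signs changed in 3 genes at 2 kPa and 8 at 20 kPa. Rplp2, Rpl10 and Rpl10a, among those at 20 kPa, had been called higher there without a correction. At 2 kPa Rpl8 was at -0.016 with length, -0.017 with block and length, -0.00027 with union-of-exons lengths and -0.057 with the trend of genes of at least 50 CPM, under which Rplp1 was at -0.021 and Rps2 at -0.019. At 20 kPa, with length, length and GC, block and length, union of exons, the trend of genes of at least 50 CPM, and block, length and GC, Rps2 was at -0.070, -0.051, -0.074, -0.053, -0.13 and -0.055 and Rpl8 at -0.12, -0.098, -0.12, -0.11, -0.21 and -0.099. With the trend of genes of at least 50 CPM Rplp2 was at -0.054, Rpl10 at -0.015, Rpl10a at -0.0054 and Rps10 at -0.084, and Rpsa was at -0.0020 with block, length and GC. Rpl24 was at 0.033 with total counts alone and at -0.049 to 0.052 without single libraries. The cause of these movements was not tested.

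Replicate numbers were not taken to pair the libraries: deviations of same-numbered libraries correlated from -0.20 to 0.31, and in no pair of groups did all 3 exceed 0.1. With the replicate block 64 and 70 genes were called at 2 and 20 kPa, 72 for the mean effect, 3 for stiffness on elastic gels and 6 on viscoelastic gels (Rpl21, Rpl31, Rpl38, Rpl39, Rps24 and Rps28).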
